A study of Mus musculus with 7 samples.

Results

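The solute carrier genes described here are the 114 genes that macrophages of the healing nerve carried at a clear level, out of 341 genes in the table with a solute carrier name, that is Slc, a family number, the letter a and a member number. A gene was kept when its mean level was at least 5 FPKM (fragments scaled to transcript length and library size) on at least 1 of days 5, 14 and 28, and 11 genes known from arginine and cystine uptake, iron, glucose, lactate and zinc export were left out by name, 10 of which were at that level. The members were thus chosen by the same FPKM values that are described below, and their being expressed is no finding. Of the other names 217 were under the level on every day, and 51 of the 341 had no fragment in any library. The whole table held 23361 genes.

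Macrophages were sorted from the regenerative bridge, the tissue that grows between the cut ends of a nerve, after the sciatic nerve of wild-type BALB/cJ mice had been transected and repaired in an inert conduit. Sorted cells were negative for a set of lineage markers and positive for F4/80, CD14, CD11b and CD16/32. The time course had 3 RNASeq libraries at day 5, 2 at day 14 and 2 at day 28, with no uninjured nerve. The sources used here do not say if mice were pooled for a library, so the p-values measure the spread between libraries only.

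Solute carriers are membrane proteins that move amino acids, sugars, metals, nucleosides, lipids and ions across the cell surface and across the membranes of lysosomes, mitochondria and the Golgi. Most work as exchangers or ride on a gradient of sodium or protons, and some need a partner chain to reach the membrane. Macrophages that clear myelin and dead cells digest them in the lysosome, and carriers move the breakdown products out of it.

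Assigned fragments ranged from 18027190 to 35247116 per library, and the members took 1.03% to 1.12% of them. The fewest fragments of a member in a library were 8 and the median was 1072. Of 8 macrophage genes, Lyz2 was the highest, between 10675 and 18377 FPKM in every library, and 1 was called lower at day 28 than at day 5. This was Emr1, with means of 410 FPKM on day 5 and 202 FPKM on day 28 (log2 fold change -1.01). In bulk RNA, fewer cells of a type and less RNA per cell cannot be told apart. Summed over 7 fibroblast genes the level was 28.8 to 74.1 FPKM on day 5, 223 and 81.2 FPKM at day 14, and 35.6 and 57.0 FPKM at day 28, and 1 of the 7 was called higher at day 14. Summed over 8 neutrophil genes it was 330 to 352 FPKM on day 5, 593 and 578 FPKM at day 14 and 291 and 151 FPKM at day 28. Of these 8, 1 was called lower at day 28 than at day 5 (Csf3r, log2 fold change -1.09). Summed over the 8 Schwann cell genes listed, the level was 242 to 294 FPKM on day 5, 280 and 159 FPKM at day 14 and 153 and 156 FPKM at day 28. Nearly all of that sum was Pmp22, which was called lower at day 28, and 1 other of the list was called higher. Of 6 endothelial genes, 2 were called higher at day 28 than at day 5 (Tek and Vwf) and 2 lower (Kdr, log2 fold change -3.02, and Pecam1, -1.80), and the sum was 15.6 to 27.5 FPKM on day 5 and 10.1 and 6.12 FPKM at day 28. Of 5 dendritic cell genes Ccr7 was called higher, from 6.64 to 17.8 FPKM in the means. Summed over the red cell genes, it was 32.9 to 49.1 FPKM on day 5, 59.6 and 8.28 FPKM at day 14, and 3.86 and 12.5 FPKM at day 28. The part of these other cells in the results was not tested.

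Of the 114 members, 98 were at the level on all 3 days, 7 on 2 days and 9 on 1 day, namely 1 only on day 5, 3 only on day 14 and 5 only on day 28. A gene that entered through 1 or 2 days had to be higher there. Just inside the level were Slc26a6 with a highest daily mean of 5.09 FPKM, Slc25a16 with 5.17 FPKM and Slc39a3 with 5.37 FPKM, and just outside were Slc7a5 with 4.94 FPKM, Slc25a26 with 4.76 FPKM and Slc37a3 with 4.75 FPKM. The members came from 39 families. In 4 of them only the name is shared: Slc9a3r1 and Slc9a3r2 encode scaffold proteins that bind carriers, and Slc4a1ap and Slc7a6os are named after a neighbour or partner gene.

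A small group of carriers made up much of the signal. Slc15a3, a lysosomal carrier of histidine and small peptides, had the highest mean over the 7 libraries, 312 FPKM. Next came Slc25a5, which exchanges ADP for ATP across the inner mitochondrial membrane, Slc25a3, the mitochondrial phosphate carrier, Slc3a2, the heavy chain (CD98) that brings amino acid carriers to the surface, and Slc6a6, the taurine carrier. The zinc importer Slc39a1, the amino acid exchanger Slc7a8 and Slc37a2, a sugar phosphate exchanger of the endoplasmic reticulum, completed the first 8. These 8 held 43.6% of the members' summed FPKM on day 5, 39.1% on day 14 and 40.5% on day 28. Most members were far lower, with a median of 16.1 FPKM, 6 members over 100 FPKM and 35 under 10 FPKM.

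**Figure D1:**
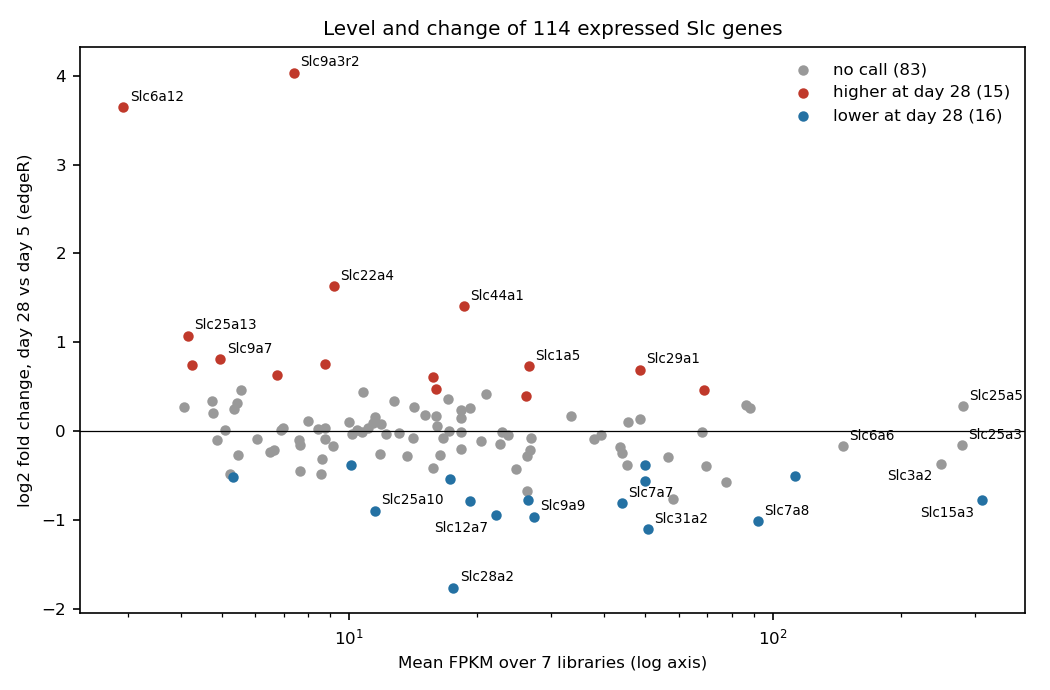
Each point is 1 of the 114 members, with its mean FPKM over the 7 libraries on a log axis against its log2 fold change from day 5 to day 28. Red and blue points are the 15 members called higher and the 16 called lower with edgeR. The largest rises were those of Slc9a3r2 and Slc6a12, which had low levels and were members through later days only, so that their direction was fixed by the choice of members. Slc15a3, the highest of all, was called lower.

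From day 5 to day 28, 31 of the 114 members (27.2%) changed, 15 upward and 16 downward (edgeR quasi-likelihood F test, Benjamini-Hochberg adjusted p under 0.05 over 12858 genes). Among all genes tested 15.2% were called in this comparison, 7.74% higher and 7.51% lower. Among genes that reached the same level of 5 FPKM on some day 18.7% were called, 7.51% higher and 11.2% lower. Since the members were chosen by level, no test was made of the difference between these shares. Of the 98 members at the level on all 3 days 25 were called, 10 higher and 15 lower, and of the 16 others 6 were called, 5 higher and 1 lower. The median log2 fold change of the members was -0.04 and that of all genes 0.03. Changes were mostly moderate, as 5 members were more than 2-fold higher and 3 more than 2-fold lower. In 28 members every day 28 library lay above every day 5 library and in 39 every one lay below, and 51.5% of all genes had no overlap, 26.0% upward and 25.6% downward.

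**Figure D2:**
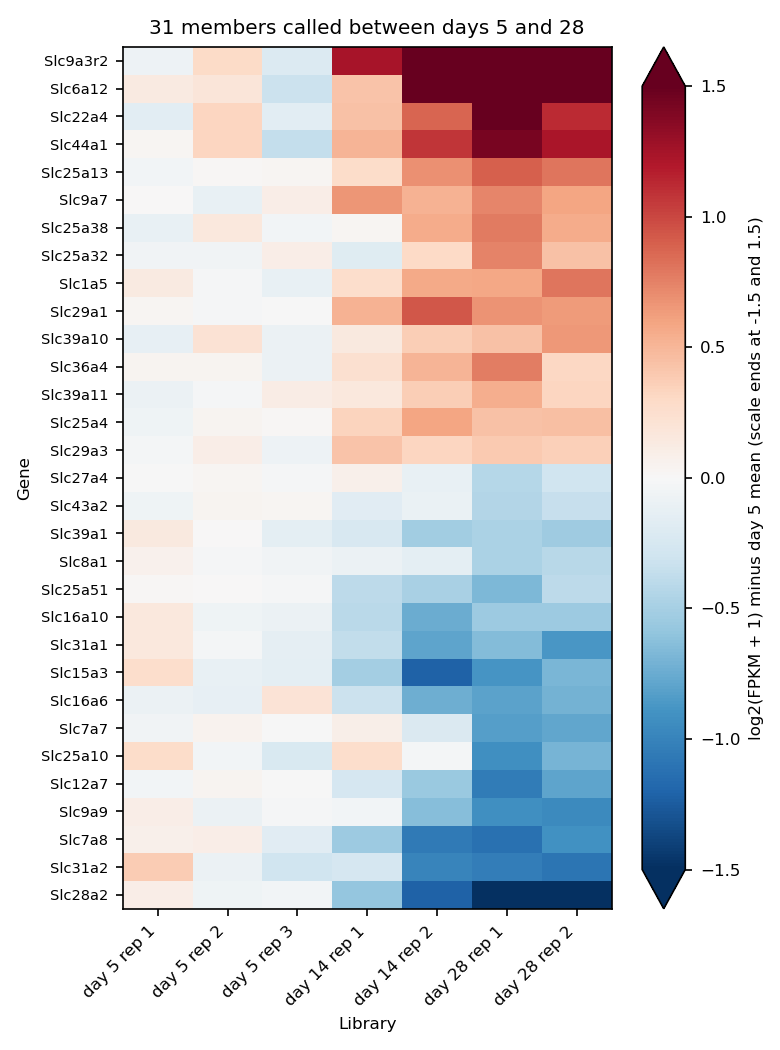
Rows are the 31 members called between days 5 and 28 and columns are the 7 libraries, coloured by log2(FPKM + 1) minus the day 5 mean of the gene. The 15 genes that rose stand above the 16 that fell, and in most rows replicate 2 of day 14 is nearer to the day 28 libraries than replicate 1.

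**Figure D3:**
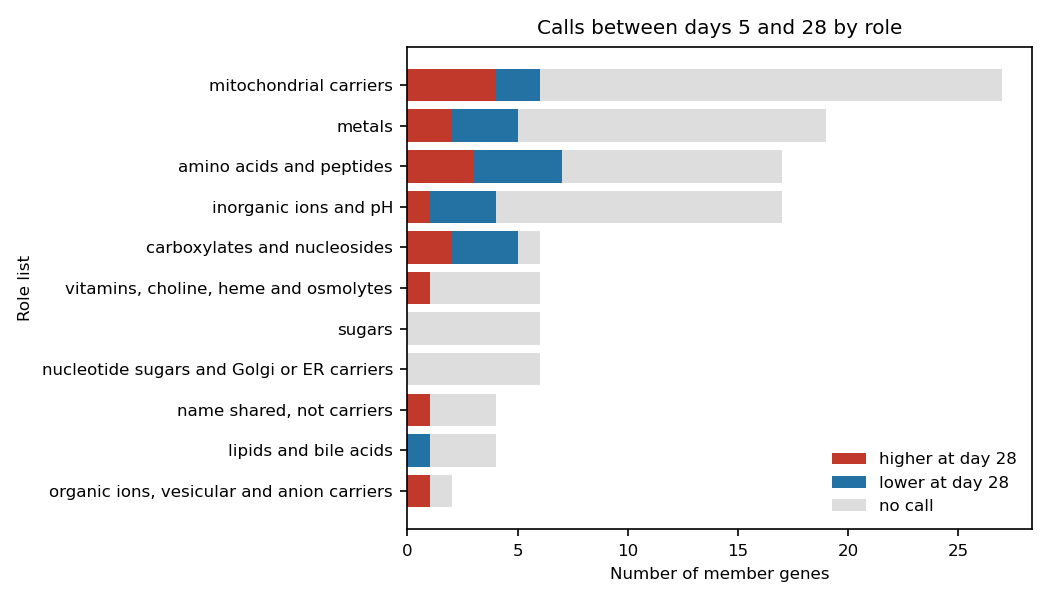
Bars count the members of each role list that were higher, lower or not called from day 5 to day 28. The carboxylate and nucleoside list had 5 of 6 members called, and the sugar and nucleotide sugar lists had none of 6 each. Of all genes at 5 FPKM on some day 18.7% were called, and differences between the lists were not tested.

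Among the role lists, the carriers of nucleosides and carboxylates had the largest share of calls, 83.3%, against 18.7% of all genes at 5 FPKM on some day. The list is short, and no test was made of this difference. Of these 6 members, 2 rose and 3 fell from day 5 to day 28, and the 2 that rose and 1 of those that fell carry nucleosides. Slc28a2, which takes up purine nucleosides together with sodium, was at 28.5, 25.3 and 25.8 FPKM at day 5, 17.4 and 10.9 FPKM at day 14 and 8.51 and 6.91 FPKM at day 28. The 3 days did not overlap, and each later day was lower. Slc28a2 (chr2:122426477-122461137, GRCm38, plus strand) was 1.87-fold lower at day 14 (log2 fold change -0.90, SE 0.19, adjusted p = 0.0352) and 3.40-fold lower at day 28 (-1.76, SE 0.20, adjusted p = 0.0013), the largest fall among the members. Slc29a1, which lets nucleosides pass the cell surface along their gradient without sodium, moved the other way, from 36.2, 35.1 and 35.4 FPKM at day 5 to 51.5 and 68.6 FPKM at day 14 and 57.3 and 55.9 FPKM at day 28. It was 1.71-fold higher at day 14 (adjusted p = 0.0197) and 1.61-fold higher at day 28 (adjusted p = 0.0103). Slc29a3, the related carrier of lysosomes, rose from 22.2 ± 1.43 FPKM (SD, n = 3) to 29.0 ± 0.47 FPKM (SD, n = 2) on day 28 (1.32-fold, edgeR adjusted p = 0.0356).

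Among the SLC16 family, Slc16a10, a carrier of aromatic amino acids and the highest member of the list, fell from 68.1, 58.1 and 57.3 FPKM at day 5 to 45.8 and 36.0 FPKM at day 14 and 41.6 and 41.5 FPKM at day 28. Most of its fall lay between days 5 and 14, where it was 1.5-fold lower (edgeR adjusted p = 0.0454), and day 28 was 1.48-fold lower than day 5 (adjusted p = 0.0258). Slc16a6, of the monocarboxylate family, fell from 24.5 ± 3.21 FPKM (SD, n = 3) to 14.0 ± 0.65 FPKM (SD, n = 2) on day 28, 1.73-fold (edgeR adjusted p = 0.0117). An exon of Slc16a6 overlaps one of Amz2 on the other strand by 1052 bases. Slc16a7, a monocarboxylate importer, was among the steadiest members, between 9.57 and 10.5 FPKM in all 7 libraries.

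Among the 17 carriers of amino acids and peptides 3 rose and 4 fell from day 5 to day 28 (41.2%, against 18.7% of genes at 5 FPKM on some day, not tested as a difference). The 4 that fell included both of the SLC7 light chains in the list, which pair with the CD98 heavy chain Slc3a2. Other SLC7 genes were left out by name or stayed under the level. Of those under the level, Slc7a4 and Slc7a6 were called higher at day 28. Slc7a8, an exchanger of large neutral amino acids, was at 132, 134 and 111 FPKM at day 5, 85.7 and 59.4 FPKM at day 14 and 56.9 and 66.1 FPKM at day 28. All libraries of the later days were under those of day 5. It was 1.72-fold lower at day 14 (edgeR adjusted p = 0.0393) and 2.02-fold lower at day 28 (adjusted p = 0.00677).

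Slc7a7, which exchanges basic for neutral amino acids, had day 14 libraries on both sides of the day 5 range and lower ones at day 28. Its libraries were at 49.1, 53.0 and 50.5 FPKM at day 5, 53.9 and 43.6 FPKM at day 14 and 28.3 and 29.1 FPKM at day 28. It was 1.76-fold lower at day 28 than at day 5 (log2 fold change -0.81, SE 0.12, edgeR adjusted p = 0.00357), while the step from day 14 to day 28 missed the threshold (1.69-fold lower, adjusted p = 0.0695). Slc7a7 (chr14:54369442-54417780) and Slc7a8 (chr14:54722209-54781946) lie near each other on the minus strand of chromosome 14 in GRCm38, and Slc7a7 overlaps an exon of Oxa1l on the other strand by 232 bases. The heavy chain Slc3a2 was at 284 ± 21.8 FPKM (SD, n = 3) on day 5 and 219 ± 14.4 FPKM (SD, n = 2) on day 28, a log2 fold change of -0.37 that missed the threshold (edgeR adjusted p = 0.113).

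Slc15a3 was at 492, 379 and 369 FPKM at day 5, 288 and 176 FPKM at day 14 and 222 and 255 FPKM at day 28. It was thus highest in all day 5 libraries, and its lowest library was from day 14. It was 1.72-fold lower at day 28 than at day 5 (log2 fold change -0.78, SE 0.21, edgeR adjusted p = 0.0396), and at day 14 it was 1.77-fold lower with an adjusted p of 0.0593. An exon of Slc15a3 overlaps one of Tmem132a on the opposite strand by 1529 bases, and whether the counting used strand is not given in the sources used here. Its relative Slc15a4, likewise a lysosomal histidine and peptide carrier, was at 45.6 ± 5.09 FPKM (SD, n = 3) on day 5 and 38.0 ± 3.75 FPKM (SD, n = 2) on day 28 and was not called (edgeR adjusted p = 0.249). Slc43a2, a carrier of large neutral amino acids, fell 1.31-fold to day 28 (adjusted p = 0.0444).

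The members of the list that rose were Slc1a5, Slc36a4 and Slc6a12. Slc1a5, a sodium-dependent glutamine exchanger, was at 22.8, 20.3 and 19.0 FPKM at day 5, 25.0 and 31.1 FPKM at day 14 and 31.3 and 36.7 FPKM at day 28, and all later libraries were above day 5. It was 1.66-fold higher at day 28 (edgeR adjusted p = 0.00953). Slc36a4, an amino acid carrier of the SLC36 family, rose 1.52-fold (adjusted p = 0.0366). Slc6a12, which imports betaine and GABA, had 34, 31 and 8 fragments at day 5 (0.591, 0.637 and 0.155 FPKM), and then 0.935 and 6.77 FPKM at day 14 and 7.50 and 3.94 FPKM at day 28. It rose 12.5-fold (log2 fold change 3.65, SE 0.75, edgeR adjusted p = 0.0137), and of its day 14 libraries the first was near day 5 and the second within the day 28 range. It reached the level on day 28 only, so that the direction was fixed by the choice of members, and it was not called without the first day 5 or the first day 28 library. Taurine carrier Slc6a6, by contrast, was between 130 and 162 FPKM in all libraries and was not called (day 28 against day 5, edgeR adjusted p = 0.331).

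Among the 19 metal carriers 2 rose and 3 fell (26.3%, against 18.7% of genes at 5 FPKM on some day, not tested as a difference). Both copper carriers were lower at day 28. Slc31a2, which acts on copper stores of endosomes and lysosomes, was at 86.8, 62.7 and 53.9 FPKM at day 5, 55.7 and 33.1 FPKM at day 14 and 31.8 and 30.5 FPKM at day 28. Its first day 14 library lay within the day 5 range and its second near day 28. It was 2.16-fold lower at day 28 (log2 fold change -1.11, SE 0.24, edgeR adjusted p = 0.0183). Slc31a1, the copper importer of the cell surface, was at 37.6, 32.9 and 30.4 FPKM at day 5, 25.8 and 18.9 FPKM at day 14 and 21.1 and 17.9 FPKM at day 28, and fell 1.71-fold (adjusted p = 0.0142). The 2 genes lie near each other on the plus strand of chromosome 4, Slc31a2 at chr4:62262562-62298411 and Slc31a1 at chr4:62360727-62391769 in GRCm38.

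The zinc importers of the SLC39 family did not move together. Slc39a1, the highest of them, was at 147, 134 and 120 FPKM at day 5, 112 and 92.4 FPKM at day 14 and 95.1 and 91.1 FPKM at day 28, a 1.42-fold fall to day 28 (edgeR adjusted p = 0.0352). Slc39a10 rose from 5.53 ± 0.86 FPKM (SD, n = 3) to 8.52 ± 1.01 FPKM (SD, n = 2), 1.55-fold (adjusted p = 0.0264), and Slc39a11 from 13.7 ± 1.01 FPKM to 18.9 ± 2.21 FPKM, 1.39-fold (adjusted p = 0.038). Even so Slc39a1 had the highest level of the 3 on every day. Slc39a1 has 1 gene named as its pseudogene in the annotation, as does Slc25a5, so that reads may be shared.

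Slc11a2, a proton-coupled importer of ferrous iron, had a wide gap between the day 14 libraries (2.72-fold). It was at 90.1, 70.1 and 57.1 FPKM at day 5, 76.7 and 28.2 FPKM at day 14 and 37.7 and 47.0 FPKM at day 28. The days overlapped through the first day 14 library, and the fall to day 28 was not called (1.71-fold, edgeR adjusted p = 0.183). The summed red cell genes were likewise high in that day 14 library and low in the other (59.6 and 8.28 FPKM), and the part of red cell RNA in the level was not tested.

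**Figure D4:**
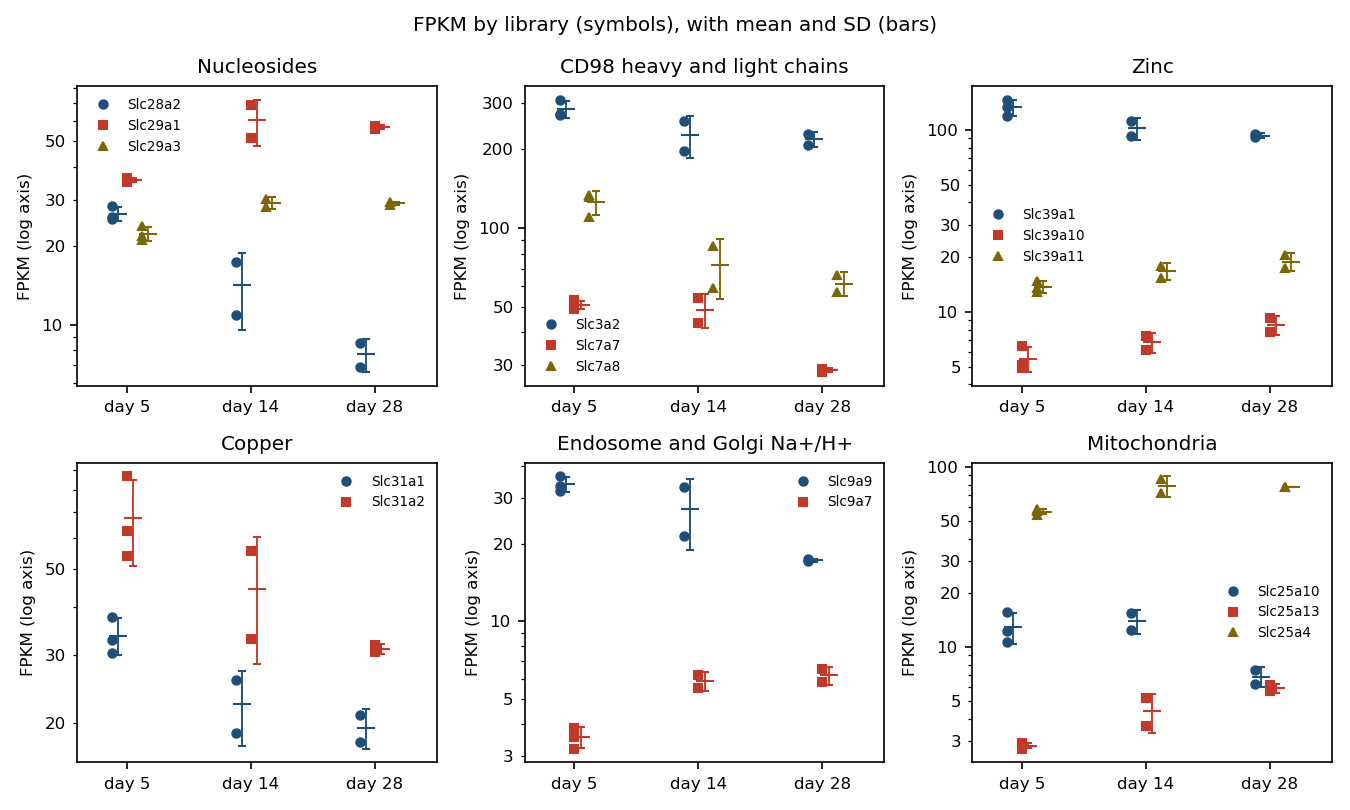
FPKM of related carriers by library on log axes, with symbols for libraries and bars for the mean and SD of each day (n = 3, 2 and 2). Slc28a2 falls while Slc29a1 and Slc29a3 rise, Slc39a1 falls while Slc39a10 and Slc39a11 rise, and both copper carriers fall.

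Among the 17 carriers of inorganic ions and protons 1 rose and 3 fell (23.5%, against 18.7% of genes at 5 FPKM on some day, not tested as a difference). Slc9a9 and Slc9a7 exchange sodium or potassium for protons in endosomes and in the trans-Golgi, respectively. Slc9a9 was at 36.5, 32.0 and 33.4 FPKM at day 5, 33.1 and 21.4 FPKM at day 14 and 17.4 and 17.1 FPKM at day 28, 1.95-fold lower than at day 5 (log2 fold change -0.97, SE 0.17, edgeR adjusted p = 0.00773). Slc9a7 was at 3.58, 3.21 and 3.88 FPKM at day 5, 6.21 and 5.52 FPKM at day 14 and 6.53 and 5.84 FPKM at day 28. Both day 14 libraries were already above day 5. It rose 1.66-fold to day 14 (edgeR adjusted p = 0.0415) and 1.76-fold to day 28 (adjusted p = 0.0122), but it was under the level at day 5 and a member through the later days only, so that the direction was fixed by the choice.

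Slc12a7, which exports potassium with chloride, was at 27.4, 28.9 and 28.1 FPKM at day 5, 23.5 and 18.9 FPKM at day 14 and 13.1 and 15.8 FPKM at day 28. The days did not overlap, and the fall to day 28 was 1.93-fold (log2 fold change -0.95, SE 0.13, edgeR adjusted p = 0.00306). Slc8a1, the sodium-calcium exchanger of the cell surface, fell from 6.02 ± 0.30 FPKM (SD, n = 3) to 4.16 ± 0.14 FPKM (SD, n = 2), 1.43-fold (adjusted p = 0.0122). It was under the level at day 28 and a member through the earlier days only, so that this direction too was fixed by the choice. The highest member, Slc24a6 (now Slc8b1), which exchanges sodium for calcium in mitochondria, was at 90.9 ± 10.6 FPKM (SD, n = 3) and 60.6 ± 11.8 FPKM (SD, n = 2) and missed the threshold (edgeR adjusted p = 0.0648). The anion exchanger Slc4a2 was steady, between 22.2 and 25.1 FPKM in all libraries.

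The mitochondrial SLC25 family was the largest list with 27 members, of which 4 rose and 2 fell, and 21 were not called. The calls are 22.2% of the list, near the 18.7% of genes at 5 FPKM on some day. Slc25a13, the aspartate-glutamate carrier of the malate-aspartate shuttle, was at 2.73, 2.88 and 2.92 FPKM at day 5, 3.65 and 5.19 FPKM at day 14 and 6.16 and 5.68 FPKM at day 28. The days did not overlap, and it rose 2.10-fold (log2 fold change 1.07, SE 0.18, edgeR adjusted p = 0.00618). Slc25a13 reached the level on day 28 only, so a higher value there was fixed by the choice of members. The same holds for Slc25a32, a carrier of folate and FAD, at 3.52 ± 0.28 FPKM (SD, n = 3) on day 5 and 5.84 ± 1.03 FPKM (SD, n = 2) on day 28 (1.68-fold, edgeR adjusted p = 0.0414).

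Slc25a38, which brings glycine into mitochondria for heme synthesis, rose 1.69-fold (edgeR adjusted p = 0.0362). Slc25a4, an ADP/ATP exchanger, was at 54.3, 58.3 and 57.3 FPKM at day 5, 71.5 and 86.0 FPKM at day 14 and 77.2 and 77.8 FPKM at day 28. It was higher in both later groups, 1.40-fold at day 14 (adjusted p = 0.0451) and 1.38-fold at day 28 (adjusted p = 0.0253). Its more abundant relative Slc25a5 was at 259 ± 10.6 FPKM (SD, n = 3) on day 5 and 312 ± 30.4 FPKM (SD, n = 2) on day 28 and was not called (edgeR adjusted p = 0.131).

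Slc25a10, which exchanges malate and succinate for phosphate, stayed high to day 14, at 15.6, 12.4 and 10.7 FPKM and then 15.5 and 12.4 FPKM, and was at 6.25 and 7.49 FPKM at day 28. It was 1.86-fold lower at day 28 than at day 5 (log2 fold change -0.90, SE 0.18, edgeR adjusted p = 0.0125) and 2.03-fold lower than at day 14, which missed the threshold (adjusted p = 0.085). Slc25a51, the importer of NAD into mitochondria, had lower values in all later libraries and fell 1.46-fold to day 28 (adjusted p = 0.0164). Slc25a3 was at 299 ± 24.9 FPKM (SD, n = 3) and 266 ± 13.9 FPKM (SD, n = 2) at days 5 and 28 (edgeR adjusted p = 0.429). Slc25a28, an iron carrier, was the steadiest of the 114 members, between 21.9 and 23.9 FPKM, a range of 1.09-fold over the 7 libraries.

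Slc44a1, a choline carrier, was at 11, 13.8 and 8.25 FPKM at day 5, 15.8 and 23.9 FPKM at day 14 and 30.7 and 26.7 FPKM at day 28. Each later day lay above the earlier one, and it rose 2.65-fold to day 28 (log2 fold change 1.40, SE 0.23, edgeR adjusted p = 0.00617). This was the only call among the 6 members for vitamins, choline, heme and osmolytes from day 5 to day 28 (16.7%, near the 18.7% of genes at 5 FPKM on some day). Slc46a3, a lysosomal carrier, had its high point on day 14. It was at 2.55, 3.57 and 3.35 FPKM at day 5, 5.95 and 5.64 FPKM at day 14 and 3.94 and 3.60 FPKM at day 28, 1.85-fold higher at day 14 than at day 5 (adjusted p = 0.0379). Slc46a3 reached the level on day 14 only, so that this order was fixed by the choice of members. Slc48a1, which moves heme out of endosomes and lysosomes, was at 76.5 ± 4.89 FPKM (SD, n = 3) on day 5 and 92.5 ± 2.46 FPKM (SD, n = 2) on day 28 and was not called (edgeR adjusted p = 0.263).

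Slc22a4, which imports ergothioneine and carnitine-like cations, was at 4.46, 6.65 and 4.45 FPKM at day 5, 7.27 and 10.1 FPKM at day 14 and 19.3 and 12.3 FPKM at day 28. The days did not overlap, and with 3.09-fold (log2 fold change 1.63, SE 0.25, edgeR adjusted p = 0.00446) it was the carrier with the largest rise after Slc6a12. Slc17a5, which exports sialic acid from lysosomes, lay between 14.2 and 18.1 FPKM. The scaffold gene Slc9a3r2, which is no carrier, was a member through days 14 and 28 only, so that its direction was fixed by the choice. It went from 0.855, 1.40 and 0.699 FPKM at day 5 to 3.60 and 14.2 FPKM at day 14 and 13.2 and 17.9 FPKM at day 28. It had only 38, 52 and 28 fragments at day 5, and it was 9.59-fold higher at day 14 (log2 fold change 3.26, edgeR adjusted p = 0.0184) and 16.4-fold higher at day 28 (log2 fold change 4.03, SE 0.52, adjusted p = 0.00215). The day 14 value was 3.93 on the log2 scale without the first day 14 library and 1.93 without the second, and it was not called without the first or the third day 5 library (3.17 and 3.08). Slc9a3r1, the other scaffold, was at 49.0 ± 3.61 FPKM (SD, n = 3) on day 5 and 37.4 ± 8.47 FPKM (SD, n = 2) on day 28 and was not called (edgeR adjusted p = 0.121).

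The lists for lipids, sugars and nucleotide sugars were short, with 4, 6 and 6 members. From day 5 to day 28 the lipid list had 25% called, against 18.7% of genes at 5 FPKM on some day, and no test of these short lists was made. Of the 4 members for lipids and bile acids, Slc27a4, which activates fatty acids for uptake, fell 1.31-fold to day 28 (edgeR adjusted p = 0.0488). This call was lost with DESeq2, with no expression filter and in all limma fits. Its relative Slc27a1 was at 80.1 ± 4.65 FPKM (SD, n = 3) and 60.4 ± 9.41 FPKM (SD, n = 2) without passing (edgeR adjusted p = 0.0739). None of the 6 sugar carriers and none of the 6 nucleotide sugar and Golgi carriers was called in any comparison of days. Slc37a2, the highest sugar carrier, was at 83.7 ± 3.52 FPKM on day 5 and 98.9 ± 4.25 FPKM on day 28. Slc35a4 and Slc35a3, of the nucleotide sugar family, were among the 5 steadiest members, with ranges of 1.16-fold and 1.22-fold over the 7 libraries. Over all members the median range between the lowest and highest library was 1.51-fold, and it was under 1.5-fold in 54 members and over 3-fold in 6. In the list of 14 members that sit in lysosomes or endosomes 2 were higher at day 28, Slc29a3 and Slc36a4, and 2 were lower, Slc15a3 and Slc9a9. This is 28.6%, against 18.7% of genes at 5 FPKM on some day, and was not tested as a difference.

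Between days 5 and 14, 8 of the 114 members (7.02%) changed, against 4.78% of all genes tested (2.84% higher and 1.94% lower) and 5.91% of those at 5 FPKM on some day. Of the 98 members at the level on all 3 days, 2 were called higher and 3 lower (5.10%). Of the 16 others, 3 were called higher and 0 lower (18.75%). Slc9a3r2, Slc46a3, Slc29a1, Slc9a7 and Slc25a4 rose and Slc28a2, Slc7a8 and Slc16a10 fell, at an adjusted p under 0.05 in edgeR's test. Slc9a3r2, Slc46a3 and Slc9a7 were members through the later days only. These calls depended on the libraries, since 0 to 2 members were called when any 1 library other than the first of day 14 was left out, and 26 without that one. Over all genes tested the 614 calls likewise became 52 to 106 when 1 of the day 5 libraries was left out. In 26 members all day 14 libraries were above day 5 and in 24 all were below, and 43.2% of all genes had no overlap in either direction. This comparison and that of day 28 with day 5 use the same day 5 libraries.

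Between days 14 and 28 no member was called with edgeR, against 0.0622% of all genes. An unadjusted p under 0.05 in edgeR was found for 15 of the 114 members and for 1570 of the 12858 genes tested. DESeq2 called 4 members, out of 322 genes that it called in the whole table. Members without overlap were 16 upward and 30 downward, and 39.0% of all genes had none in either direction. The largest rises without overlap were those of Slc22a4 (log2 fold change 0.87), Slc25a32 (0.63) and Slc44a1 (0.57), and the most negative values were those of Slc25a10 (-1.02), Slc28a2 (-0.86) and Slc7a7 (-0.76). The difference between the 2 steps was tested as well. DESeq2 called 0 members, against 184 genes in the whole table, and edgeR called no member (0.0156% of all genes). In edgeR 14 of the 114 members had an unadjusted p under 0.05, as had 1621 of the 12858 genes tested. The lowest adjusted p was 0.177, for Slc46a3.

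The 2 day 14 libraries differed in where they stood between day 5 and day 28. On the log2(FPKM + 1) scale, of the 31 members called between days 5 and 28, the first day 14 library was nearer to the day 5 mean in 23 and the second nearer to the day 28 mean in 26. The median position was 38.3% of the way from day 5 to day 28 for the first and 83.5% for the second, and over all genes called in that comparison it was 41.5% and 77.7%. The summed fibroblast genes were higher in the first of these libraries (223 against 81.2 FPKM), and the part of other cells in this gap was not tested. Of the 15 members that were higher at day 28, 12 had means that increased at each step and 3 had their highest mean at day 14, and of the 16 that were lower 13 had means that decreased at each step.

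**Figure D5:**
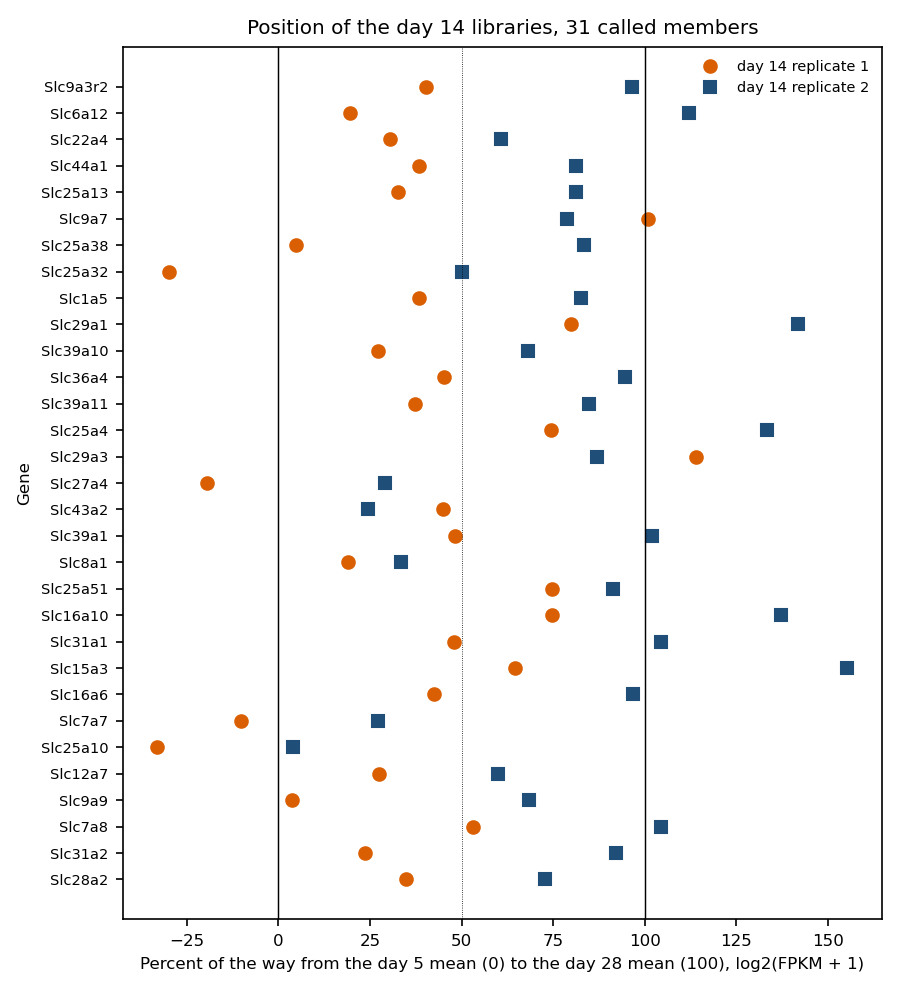
For each of the 31 members called between days 5 and 28, symbols give the position of the 2 day 14 libraries in percent of the way from the day 5 mean (0) to the day 28 mean (100), on the log2(FPKM + 1) scale. The medians were 38.3% for replicate 1 and 83.5% for replicate 2.

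Promoters of 4 called members that hold the E-box are shown, since the motif occurred among members that rose and among members that fell. RefSeq promoter windows (GRCm38.p6, 300 bases, 250 before the start site and 50 after) were matched for 87 of the 114 members with 120 windows. The E-box CACGTG, which is the core of the element found in many lysosomal genes, was present on either strand in 15.8% of member windows and in 7.15% of all 32851 windows. It was in 14.3% of the windows of members that were higher at day 28 and in 15.8% of those that were lower. These shares count windows, and windows of 1 gene can overlap and hold the same match. Members were chosen by level, while all windows include those of genes under 5 FPKM. No share was computed for windows of all genes at that level, and differences between shares were not tested. By gene, 4 of 13 members that were higher and 2 of 13 that were lower held the E-box. The antioxidant core TGACNNNGC was present in 16.7% of member windows and 12.4% of all, the PU.1 core GAGGAAGT in 1.67% and 3.20%, the ETS core CCGGAAGT in 5.00% and 3.89%, and the C/EBP-ATF element TGATGCAAT in 0 and 0.192%. Both strands were searched for each motif, and a match is a description of letters only. In the 4 windows below, written 5′ to 3′ on the strand of the gene, capitals mark CACGTG and TGACNNNGC matches. Slc31a2 and Slc12a7 fell, and Slc22a4 and Slc25a13 rose:
Slc31a2 (chr4:62286179-62286478, plus strand): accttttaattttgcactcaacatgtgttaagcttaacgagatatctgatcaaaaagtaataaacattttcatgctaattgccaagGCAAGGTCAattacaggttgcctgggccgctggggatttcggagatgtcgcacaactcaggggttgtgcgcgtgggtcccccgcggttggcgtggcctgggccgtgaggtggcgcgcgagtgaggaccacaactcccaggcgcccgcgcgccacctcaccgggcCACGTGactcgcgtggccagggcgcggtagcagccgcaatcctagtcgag
Slc12a7 (chr13:73763410-73763709, plus strand): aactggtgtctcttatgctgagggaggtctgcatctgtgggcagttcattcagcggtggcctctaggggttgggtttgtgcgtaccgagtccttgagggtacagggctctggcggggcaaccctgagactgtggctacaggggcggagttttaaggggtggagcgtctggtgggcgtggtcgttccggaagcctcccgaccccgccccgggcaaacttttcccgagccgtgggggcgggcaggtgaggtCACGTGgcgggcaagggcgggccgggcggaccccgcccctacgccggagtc
Slc22a4 (chr11:54028055-54028354, minus strand): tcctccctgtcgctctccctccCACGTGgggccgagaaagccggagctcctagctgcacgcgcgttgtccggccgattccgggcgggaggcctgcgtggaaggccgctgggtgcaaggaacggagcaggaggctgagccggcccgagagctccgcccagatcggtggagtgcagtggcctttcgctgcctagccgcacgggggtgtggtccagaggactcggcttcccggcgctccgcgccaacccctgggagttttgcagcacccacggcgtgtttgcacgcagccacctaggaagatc
Slc25a13 (chr6:6217124-6217423, minus strand): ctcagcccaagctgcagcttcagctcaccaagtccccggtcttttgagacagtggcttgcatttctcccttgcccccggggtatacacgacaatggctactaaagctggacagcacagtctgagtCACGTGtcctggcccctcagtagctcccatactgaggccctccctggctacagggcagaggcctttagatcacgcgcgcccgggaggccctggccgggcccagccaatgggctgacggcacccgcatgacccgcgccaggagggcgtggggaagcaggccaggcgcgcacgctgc

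Carriers without a solute carrier name were set beside the members. Of 80 listed, 62 were tested, and 8 were higher and 6 lower at day 28 than at day 5 (edgeR, the same threshold), a share of 22.6% against 15.2% of all genes tested. Among those higher was Ank, a carrier for pyrophosphate and ATP release, and among those lower was Bsg, the partner chain that brings monocarboxylate carriers to the surface.

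The number of calls between days 5 and 28 depended on the libraries included, among all genes tested as among the members. Over all genes, the 1960 calls became 820 to 967 when 1 of the day 5 libraries was left out. Without the first day 28 library 5 members were called, and without any 1 of the day 5 libraries 14 to 18 were. Slc28a2, Slc12a7 and Slc7a7 were called from day 5 to day 28 under every alternative tried, as was Slc9a3r2, whose direction the choice of members fixed.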

How the data were processed

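RNASeq values for 7 libraries were taken from the tables that the authors deposited. Per the submitters' notes and methods, reads were trimmed (cutadapt 1.8), aligned to mm10 (TopHat2 2.0.13) and summed per gene (Cuffdiff 2.2.1). Deposited were expected counts (fragments of a gene before scaling), the scaled signal, which is that count times 1 factor per library, and FPKM values, which the authors computed from the scaled fragments and the transcript length. Handling of multiply mapped reads and of strand is not given in the sources used here. Columns of the authors' own comparisons were not used.

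Levels are FPKM. For tests the expected counts were rounded to whole numbers, filtered with filterByExpr, scaled with TMM and fitted with edgeR 4.0.16 (R 4.3.3) over all 7 libraries by time point. P-values of the quasi-likelihood F test (4 residual degrees of freedom) were adjusted by the Benjamini-Hochberg method over 12858 genes, and an adjusted p under 0.05 was called. Fold changes and their SE are from this fit, the SE being the log2 fold change divided by the square root of F. All 114 members were tested. The scripts were tested on simulated data. Alternatives were DESeq2 1.42.0, limma 3.58.1 on log2(FPKM + 1) and log2(FPKM + 0.1), RLE and Cuffdiff scaling, no expression filter, only the 2 time points compared, a replicate block and leaving out each library.

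The members, role lists, motif list and tests were chosen with earlier results of these data known. Genes named with values are the 12 largest rises and 12 largest falls from day 5 to day 28 and up to 6 of each from day 5 to day 14 among called members without overlap, the 3 of each with the largest step from day 14 to day 28, the 8 highest members, the highest of each role, the neighbours of the level, relatives called in opposite directions, members with a wide gap between the day 14 libraries and the 5 steadiest. Slc15a4, Slc29a3, Slc43a2, Slc8a1, Slc27a4 and the carriers Ank and Bsg were added after their values were seen. Gene positions are from GENCODE M21 (GRCm38, 114 of 114 matched, 1 by an older name) and promoters from RefSeq.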

Additional observations from a re-analysis of the deposited data

How the results depend on the processing

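Alternatives were computed for 41 values of named members (35 called values and 6 uncalled steps from day 14 to day 28), and none of these changed its direction. These 41 do not include the calls of Slc27a4, Slc29a3, Slc43a2 and Slc8a1. Other uncalled values in the text were not recomputed. Of the 560 alternative values of the called ones, 380 stayed on their side of the threshold and 180 did not. From day 5 to day 28, 31 members were called, and 32 to 34 with DESeq2, RLE scaling, Cuffdiff scaling or no expression filter, 25 with limma on log2(FPKM + 1), 26 with limma on log2(FPKM + 0.1), 16 with limma and no filter, and 39 with only the 2 time points compared. Leaving out 1 library gave 5 to 39 calls: 14 without the first day 5 library, 18 without the second and 18 without the third, 5 without the first and 16 without the second day 28 library, and 39 without either day 14 library. From day 5 to day 14 the 8 calls became 17 with DESeq2, 22 with no filter, 1 with limma on log2(FPKM + 1), 2 with limma on log2(FPKM + 0.1), 0 with limma and no filter and 2 with only the 2 time points. Leaving out 1 library gave 0 to 26: 0, 1 and 0 without the day 5 libraries, 26 and 2 without the first and second day 14 library, and 2 without either of day 28. From day 14 to day 28 the 0 calls became 4 with DESeq2, 5 with no filter and 7 without the second day 14 library (range 0 to 7). The difference of the steps gave 0 calls, 2 with no filter and 5 without the first day 14 library (range 0 to 5). With 1 library left in a group, that library is assumed to vary like the others. Calls over all genes tested moved as well. From day 5 to day 28 they went from 1960 to 820 to 967 without 1 of the day 5 libraries and to 735 with the replicate block. From day 5 to day 14 they went from 614 to 52 to 106 without 1 of the day 5 libraries and to 6 with the block. The cause of these changes was not tested. The labels give replicate numbers, and samples with the same number deviated together weakly (correlations of -0.05 to 0.17 over 7613 genes). Deviations were taken from the mean of each day, so that 2 libraries of a day mirror each other, and unlike numbers were not compared. These correlations thus cannot tell if samples with the same number share a batch. A replicate block left 2 residual degrees of freedom and gave 13 calls between days 5 and 28 and 0 between days 5 and 14. Days 14 and 28 had 2 libraries each, which limits the precision, and members with few fragments, such as Slc6a12 and Slc9a3r2 at day 5, had the widest errors.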

Other observations

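Genes with a solute carrier name that stayed under the level of 5 FPKM on every day were fitted in the same model, and 73 of them had enough fragments to be tested. From day 5 to day 28, 6 were called higher (Slc12a2, Slc27a6, Slc30a4, Slc7a4, Slc7a6 and Slc9a4) and 0 lower with edgeR (adjusted p under 0.05). This is 8.22% higher calls, near the 7.74% of all genes tested that were called higher. The 0 lower calls stand against 7.51% of all genes tested, of which 15.2% were called in either direction. These differences were not tested.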
